A study of Saccharomyces cerevisiae with 36 samples.

Results

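*HXT8*, *REE1*, *YHR210C* and *YJL218W* are 4 of the 5697 genes counted in *Saccharomyces cerevisiae*. They were chosen by their own response: palatinose raised them in both strains at all 3 time points, and they are neither *MAL* nor *IMA* genes. The comparison of media within a strain is therefore the measure they were selected on, and it is given for them as a description with no test. All 4 passed the filter on low counts. The wild-type was FY4, a prototrophic laboratory strain. The *gal80Δ* mutant, derived from FY4, has no Gal80, the protein that holds the activator Gal4 inactive in the absence of galactose. Each strain was grown in minimal medium with 0.1% fructose, or with 0.1% fructose and 0.9% palatinose (fructose-palatinose), after a preculture in pyruvate without either sugar, and cells were collected at mid-log and after a further 10 hours (+10h) or 16 hours (+16h). The 36 libraries, 3 biological replicates (A, B and C) for each of 12 groups, held 6020770 to 11785148 counts, so that 3 counts stood for 0.255 to 0.498 CPM (the count of a gene scaled to a library total of 1e+06). *GAL80* lay at 45.9 to 117 CPM in the wild-type and 8.1 to 17.2 in the mutant, and *GAL1*, a target of Gal4, at 19.3 to 73.3 and 6611 to 19461, so that no library went against its strain label, although *GAL80* was not at 0 in the mutant.

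Palatinose is a disaccharide of glucose and fructose, an isomer of sucrose. Yeast takes it up with maltose-type transporters such as Mal11 and cleaves it inside the cell with isomaltases, chiefly Ima1 and Ima5, and zinc cluster activators of the *MAL* loci switch these genes on when the sugar has entered. *HXT8* belongs to the hexose transporter family. *YHR210C* encodes a protein of the aldose 1-epimerase (mutarotase) superfamily, enzymes that interconvert the anomers of a sugar. *REE1* encodes a small cytoplasmic protein reported to act on the expression of the enolase gene *ENO1*, and *YJL218W* encodes an acetyltransferase that resembles bacterial enzymes which acetylate sugars.

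Of these genes, 3 stand close together near an end of chromosome X, and *IMA5* stands among them. In the intervals used for counting (build R64), *YJL218W* lies at chrX:21866-22711 and *REE1* at chrX:23032-23911, both on the forward strand. *IMA5* follows at chrX:24216-26111 on the reverse strand, and *HXT8* lies at chrX:26862-29721 on the forward strand. The stretch from *YJL218W* to *HXT8* is 7856 bp long and begins 21865 bp from the chromosome end. *IMA5* and *HXT8* are transcribed away from each other, with 800 bp between their coding starts, whereas *REE1* and *IMA5* run towards each other, with 611 bp between their coding ends. *YHR210C* stands alone on chromosome VIII, at chrVIII:520305-521756 on the reverse strand, 40887 bp from the nearer end.

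The bases upstream of the 4 genes are shown because the MAL activators are described as binding pairs of CGG or CGC triplets held 9 bases apart, and Gal4 a CGG and a CCG held 11 apart. Each stretch runs 5′ to 3′ on the strand of its gene, from 350 to 151 bases before the coding start, in the R64 genome of RefSeq. Capitals mark the triplets of every match to CGGNNNNNNNNNCGG, CGGNNNNNNNNNCGC, CGCNNNNNNNNNCGC or CGGNNNNNNNNNNNCCG on either strand. The stretch was placed there after the matches were seen.
*HXT8*, chrX:26537-26736, forward: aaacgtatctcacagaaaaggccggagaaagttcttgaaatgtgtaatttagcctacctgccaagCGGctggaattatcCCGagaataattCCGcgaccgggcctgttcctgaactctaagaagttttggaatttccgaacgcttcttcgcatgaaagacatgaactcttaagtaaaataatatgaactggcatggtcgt
*YHR210C*, chrVIII:521888-522087, reverse: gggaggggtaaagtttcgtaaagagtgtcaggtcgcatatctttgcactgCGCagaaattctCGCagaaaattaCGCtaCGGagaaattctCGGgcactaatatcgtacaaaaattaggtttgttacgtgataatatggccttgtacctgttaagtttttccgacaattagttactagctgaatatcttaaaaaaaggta
*REE1*, chrX:22783-22982, forward: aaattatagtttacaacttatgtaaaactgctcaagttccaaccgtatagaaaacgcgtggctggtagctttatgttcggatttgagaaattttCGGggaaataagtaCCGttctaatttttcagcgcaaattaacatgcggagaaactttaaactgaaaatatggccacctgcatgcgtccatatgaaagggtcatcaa
*YJL218W*, chrX:21623-21822, forward: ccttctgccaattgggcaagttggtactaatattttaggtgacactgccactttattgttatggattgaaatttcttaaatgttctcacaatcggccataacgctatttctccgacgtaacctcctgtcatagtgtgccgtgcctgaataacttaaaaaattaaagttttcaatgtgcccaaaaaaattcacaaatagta

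Upstream of *YHR210C*, 3 matches of the MAL type stood in a row. They began 300, 288 and 271 bases before the coding start, and the first pair shared a CGC triplet. The first and the last of them, CGCagaaattctCGC and CGGagaaattctCGG, enclose the same 9 bases. In the 500 bases before a coding start, 3 or more matches to the 3 MAL-type motifs were found for 0.949% of 6006 genes. For 2 or more the share was 3.58%, and for 1 or more 14.4%. The count of 3 is the one *YHR210C* itself had, and matches that share a triplet were counted separately. *MAL11*, *MAL12* and *MAL32* each had 2 in windows of that length, with *MAL11* and *MAL12* sharing theirs between divergent coding starts. *IMA5* had 1 and *IMA1* had 0. The palatinose effect was 4.38 to 8.56 on the log2 scale for *IMA1*, 0.78 to 4.61 for *MAL12* and 0.01 to 0.99 for *MAL32*. Reads of *MAL12* and *MAL32*, nearly identical genes, can be split between them. Whether the number of matches goes with this effect was not tested. *HXT8* had 1, CCGagaataattCCG on the forward strand (chrX:26616-26630), which lies in the stretch it shares with *IMA5*, 271 bases before the *HXT8* start and 544 before that of *IMA5*. A second match in this stretch, CGGtaattgataCGG read on the *IMA5* strand, lay 142 bases before *IMA5* and 673 before *HXT8*. The Gal4-type spacing was found once upstream of *HXT8*, where it shares its CCG with the MAL-type match, and once upstream of *REE1*, at 256 bases. *REE1* had a MAL-type match only further off, at 697 bases, inside the coding sequence of *YJL218W*. The Gal4-type spacing occurred in 2.98% of the windows of 500 bases, against 4.68%, 5.38% and 6.86% for the MAL-type motifs in the order spelled above. *YJL218W* had no match to these letters in 1000 bases. In the shorter window first set, 250 bases before to 50 after the coding start, none of the 4 genes had a match, while the motifs occurred in 2.1%, 2.81%, 4.11% and 1.35% of 6007 windows. A match is a description of the letters and was not tested as a site.

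In fructose alone, 3 of the genes were near the lower end of what these libraries count. *HXT8* ranged from 3.2 to 9.01 CPM over the 18 fructose libraries, *YHR210C* from 2.16 to 6.57 and *YJL218W* from 3.19 to 11.4, whereas *REE1* ranged from 76.4 to 224. The lowest of these values, for *YHR210C* in the *gal80Δ* strain, rested on 13 counts. In fructose-palatinose no library of any of the 4 genes fell within its fructose range: the lowest values were 27.4 CPM for *HXT8*, 583 for *REE1*, 12.4 for *YHR210C* and 14.5 for *YJL218W*.

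**Figure D1:**
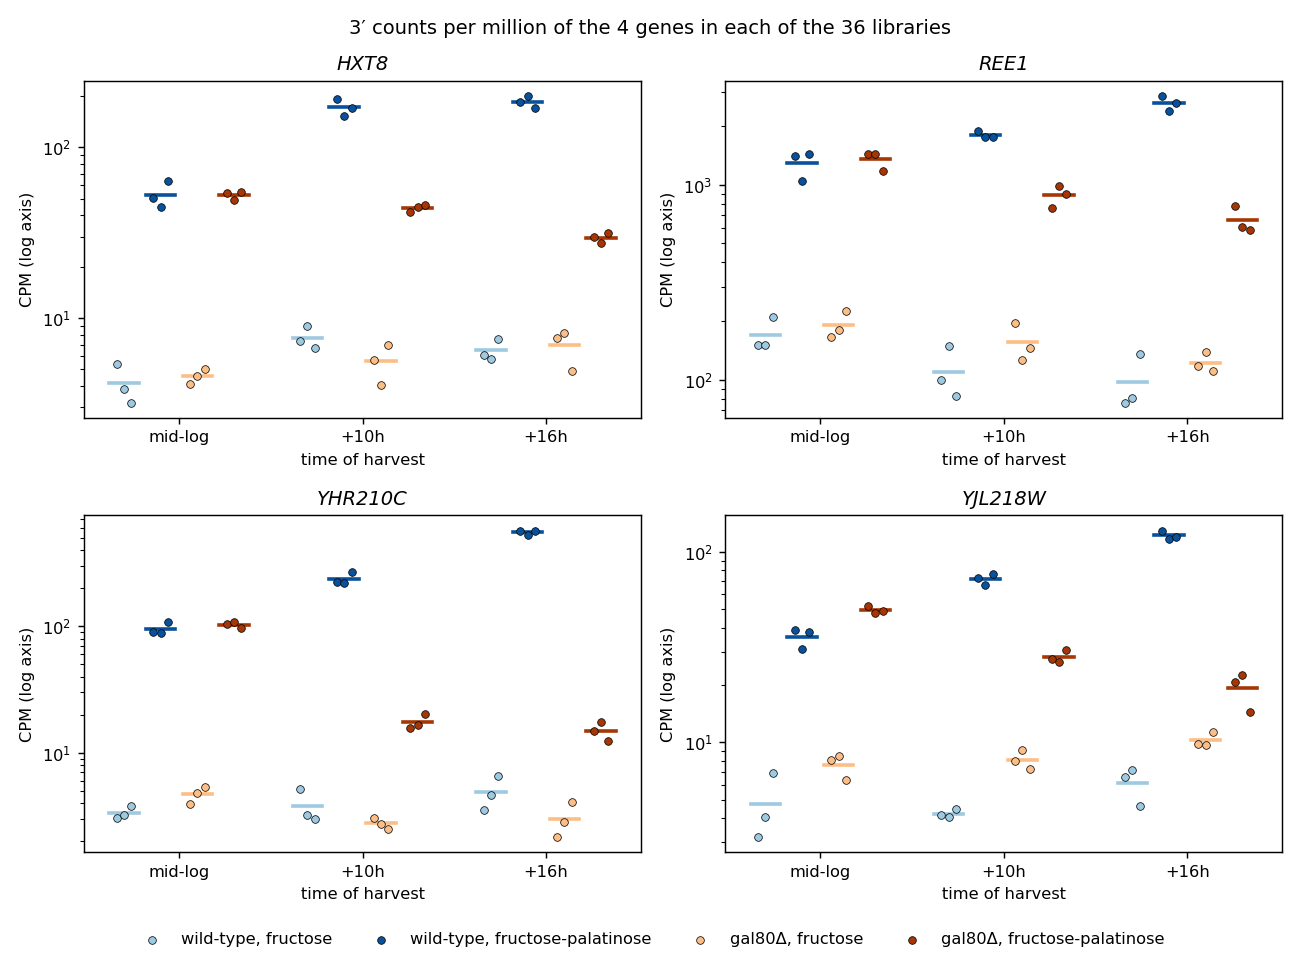
CPM on a log axis for each of the 4 genes in the 36 libraries, by time of harvest. Points are libraries and bars the means of 3. In each panel the fructose-palatinose libraries lie above all fructose libraries, and after mid-log the wild-type libraries climb to 170 to 199 CPM for *HXT8* at +16h, while those of *gal80Δ* drop to 27.4 to 31.4.

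*YHR210C*, the mutarotase-like gene, had the widest range. In the wild-type in fructose-palatinose its libraries A, B and C held 90.1, 88.1 and 108 CPM at mid-log, then 225, 218 and 267 at +10h, then 568, 525 and 563 at +16h. In fructose the same strain held 3.05, 3.21 and 3.82 CPM at mid-log, 5.2, 3.22 and 2.97 at +10h and 3.54, 4.62 and 6.57 at +16h. The fitted palatinose effect in the wild-type was thus 28.4-fold at mid-log, 67.8-fold at +10h and 115-fold at +16h. In *gal80Δ*, fructose-palatinose libraries began as high, with 104, 109 and 96.2 CPM at mid-log, but held 15.6, 16.6 and 20.3 at +10h and 15, 17.4 and 12.4 at +16h. Every one of the later mutant libraries was below every mid-log library of either strain in this medium, and the fitted effect of palatinose there was 6.04-fold at +10h and 4.89-fold at +16h.

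*HXT8*, the transporter gene, followed the same course over a narrower range. The wild-type libraries in fructose-palatinose held 50.6, 44.5 and 63.3 CPM at mid-log, 193, 153 and 169 at +10h, and 185, 199 and 170 at +16h, with the values of the later times overlapping. Those of *gal80Δ* held 54.1, 49.4 and 54.9 CPM at mid-log, inside the wild-type range, then 42, 44.7 and 45.8 at +10h and 30, 27.4 and 31.4 at +16h. The means in fructose stayed between 4.15 and 7.66 CPM in both strains. The fitted effect of palatinose was 13-fold, 24.4-fold and 29.3-fold at the successive times in the wild-type, and 11.3-fold, 7.65-fold and 4.26-fold in *gal80Δ*. The authors moved the annotated 3′ end of *HXT8* to where their own reads ended, so its level depends on that choice in all libraries alike.

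*REE1* was the most counted of the 4 with at least 76.4 CPM in every library. In the wild-type in fructose-palatinose it held 1405, 1045 and 1446 CPM at mid-log, 1896, 1752 and 1767 at +10h, and 2843, 2379 and 2622 at +16h. In *gal80Δ* it held 1437, 1446 and 1178 CPM at mid-log, 763, 990 and 892 at +10h, and 776, 609 and 583 at +16h, so that the mid-log values of the strains overlapped and the later ones did not. In fructose the group means ran from 97.5 CPM (SD 32.9, n = 3) in the wild-type at +16h to 190 (SD 30.5, n = 3) in *gal80Δ* at mid-log. The fitted effect of palatinose was 7.75-fold, 17.9-fold and 27.7-fold in the wild-type, and 6.9-fold, 5.4-fold and 5.38-fold in *gal80Δ*.

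*YJL218W*, the acetyltransferase gene, had the weakest response in the mutant. In the wild-type in fructose-palatinose it held 39, 30.8 and 38 CPM at mid-log, 72.7, 67 and 76.8 at +10h, and 129, 117 and 120 at +16h. In *gal80Δ* it held 51.7, 47.6 and 49 CPM at mid-log, all above the wild-type, then 27.5, 26.5 and 30.5 at +10h and 20.8, 22.5 and 14.5 at +16h. The mutant's fructose libraries at +16h, with 9.8, 9.71 and 11.4 CPM, came near the lowest of these. The fitted effect of palatinose was 7.58-fold, 18.5-fold and 20.6-fold in the wild-type, and 6.37-fold, 3.34-fold and 1.87-fold in *gal80Δ*.

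Ranked by mean CPM, all 4 genes put the same groups in the first 6 places in the same order: the wild-type in fructose-palatinose at +16h and +10h, *gal80Δ* and then the wild-type at mid-log, and *gal80Δ* at +10h and +16h, all in fructose-palatinose. This order holds for CPM scaled by library total. With TMM-scaled CPM the wild-type at mid-log came before *gal80Δ* for *HXT8* and *REE1*. The ranges of neighbouring groups overlapped between the later wild-type groups for *HXT8*, between the mid-log groups of the strains for *HXT8*, *REE1* and *YHR210C*, and between the later *gal80Δ* groups for *REE1* and *YHR210C*. For *HXT8* the wild-type at mid-log also overlapped *gal80Δ* at +10h. No overlap separated the last fructose-palatinose group from the first fructose group in any gene. The 6 fructose groups followed in orders that differed between genes, and of their 5 adjacent pairs all overlapped for *HXT8*, *REE1* and *YHR210C*, and 4 for *YJL218W*.

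The threshold used for the choice, a log2 fold change above 0.5 with an adjusted p-value below 0.05 from the quasi-likelihood test of edgeR, was met by 7 of 5479 genes tested in the wild-type at mid-log (0.128% raised). In this strain 5.38% were raised at +10h and 2.56% at +16h, whereas in *gal80Δ* each time gave 0.128%. The genes raised in all 6 comparisons were also 7 (0.128%), so that these same 7 were all that rose in the comparisons that called 7: the 4 described here with *IMA5*, *IMA1*, the main isomaltase gene, and *MAL12*, a maltase gene. No gene was raised in 3, 4 or 5 of the 6 comparisons, while 42 were raised in 2 and 337 in 1. Just inside the threshold stood *MAL12* and *YJL218W* in *gal80Δ* at +16h, with log2 fold changes of 0.78 and 0.91. Without replicate A, the latter became 0.78 and without replicate B 0.77, and the threshold was then missed. The next gene outside, by the smallest of its 6 log2 fold changes, was *DAL1* of allantoin breakdown. Its smallest was 0.13, far from the threshold, and it was raised in 1 of the 6 comparisons.

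The strains were also compared within fructose-palatinose. This contrast was not itself the rule of the choice, but its libraries are among those the rule used. It is thus not independent of the choice, and nothing is read from the shares of all genes given beside it. At mid-log none of the 4 genes was lower in *gal80Δ*, against 4.05% of all genes, and none was called in the other direction. The log2 fold changes, mutant over wild-type, were 0.03 ± 0.17 (SE) for *YHR210C*, −0.08 ± 0.16 for *HXT8*, −0.03 ± 0.23 for *REE1* and 0.37 ± 0.16 for *YJL218W*, with edgeR adjusted p-values from 0.149 to 0.959. At +10h all 4 were lower in the mutant, against 7.54% of all genes. *YHR210C* differed most, by −3.88 ± 0.19 on the log2 scale (edgeR adjusted p = 6.6e-16), followed by *HXT8* at −2.08 ± 0.16 (5.8e-11), *YJL218W* at −1.48 ± 0.16 (8.0e-08) and *REE1* at −1.15 ± 0.23 (6.7e-04). At +16h all 4 were lower again, against 7.26% of all genes. The differences were −5.32 ± 0.20 for *YHR210C*, −2.77 ± 0.17 for *YJL218W*, −2.75 ± 0.17 for *HXT8* and −2.10 ± 0.24 for *REE1*, with edgeR adjusted p-values from 1.9e-18 to 9.4e-08.

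As shares of the wild-type mean, the mutant held 7.39% of *YHR210C* at +10h and 2.71% at +16h, 25.7% and 16% of *HXT8*, 39.1% and 15.8% of *YJL218W*, and 48.8% and 25.1% of *REE1*. The cultures also differed in density at these harvests. The OD of the wild-type in fructose-palatinose was 1.65 to 1.80 at +10h and 2.60 to 2.80 at +16h, and that of *gal80Δ* 1.55 to 1.65 and 1.90 to 2.1, whereas at mid-log they were 0.26 to 0.29 and 0.29. In these harvests strain and density cannot be told apart, and the part of density in the difference was not tested.

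**Figure D2:**
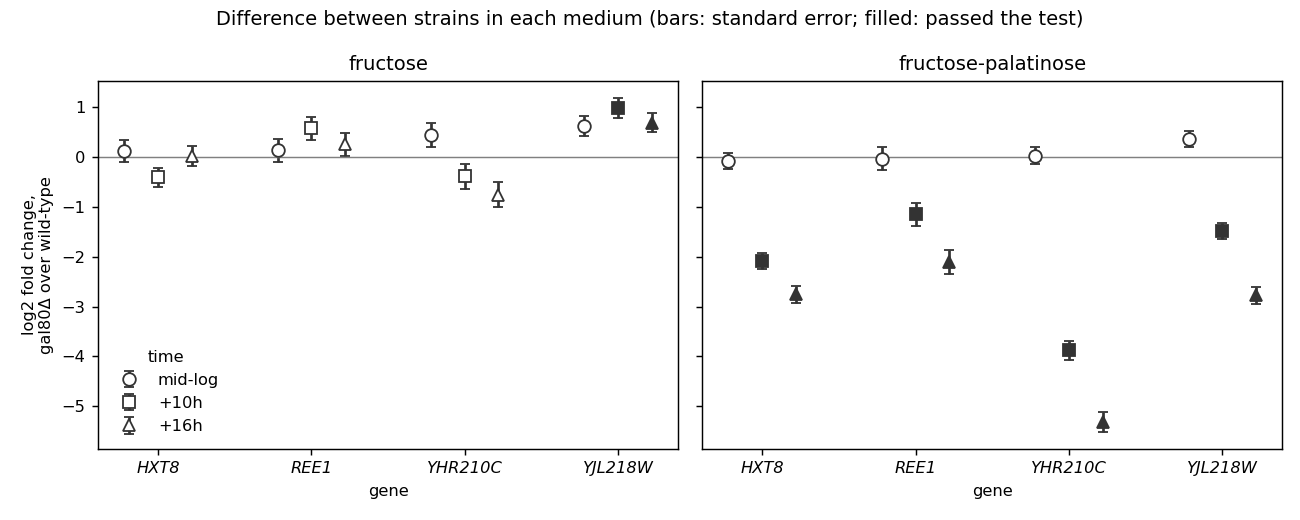
Log2 fold change of *gal80Δ* over wild-type in fructose (left) and fructose-palatinose (right) for the 4 genes at the 3 times. Bars are standard errors and filled markers passed the test. In fructose-palatinose the mid-log values sit near 0 and the +16h values between −2.10 and −5.32.

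In fructose alone the strains differed little in these genes, and no difference was as large as those in fructose-palatinose after mid-log. The fructose libraries are also among those the rule used, and nothing is read from the shares of all genes. At mid-log no gene of the 4 was called, against 7.15% of all genes in either direction. At +10h 1 was called, against 7.5%, and at +16h 1, against 5.97%. It was *YJL218W* both times, and it was higher in *gal80Δ*. Its libraries held 7.97, 9.14 and 7.26 CPM in the mutant and 4.14, 4.08 and 4.46 in the wild-type at +10h, without overlap (log2 0.99 ± 0.20, edgeR adjusted p = 0.0019). At +16h it held 9.8, 9.71 and 11.4 CPM in the mutant and 6.58, 7.18 and 4.66 in the wild-type (0.69 ± 0.19, edgeR adjusted p = 0.0259), and at mid-log the value was 0.62 ± 0.20 (edgeR adjusted p = 0.0518). These calls rested on few libraries. At +10h the value without replicate A was 0.94 (edgeR adjusted p = 0.0514) and without B 0.86 (0.133). At +16h it was 0.79, 0.82 and 0.46 without A, B and C, none past the threshold, and at mid-log it passed without C, at 1.05. *YHR210C* lay at −0.76 ± 0.25 at +16h (edgeR adjusted p = 0.0614), a value that passed with DESeq2.

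How the palatinose effects of the strains compared is given by their interaction. It is made of the same palatinose effects that the genes were chosen on, so it is not independent of the choice and stands here as a description. At mid-log no gene of the 4 was called and none of all genes had a weaker effect in *gal80Δ* (0%), with 65 genes in all at an unadjusted p below 0.05 in edgeR, none of them among the 4, and 0 called by DESeq2. At +10h palatinose raised all 4 less in *gal80Δ*, against 0.548% of all genes, and at +16h again all 4, against 0.785%. Nothing is read from these shares, since the 4 genes were chosen for a response to palatinose. On the log2 scale the interaction of *YHR210C* was −3.49 ± 0.33 at +10h and −4.56 ± 0.32 at +16h. For *YJL218W* the values were −2.47 ± 0.26 and −3.46 ± 0.26, for *HXT8* −1.67 ± 0.26 and −2.78 ± 0.26, and for *REE1* −1.73 ± 0.33 and −2.36 ± 0.33. Without replicate A, the +10h values of *HXT8* and *REE1* were −1.46 and −1.29 and missed the threshold, in a comparison that then called 6 genes in place of 44. The +16h values kept their direction under the alternatives run.

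**Figure D3:**
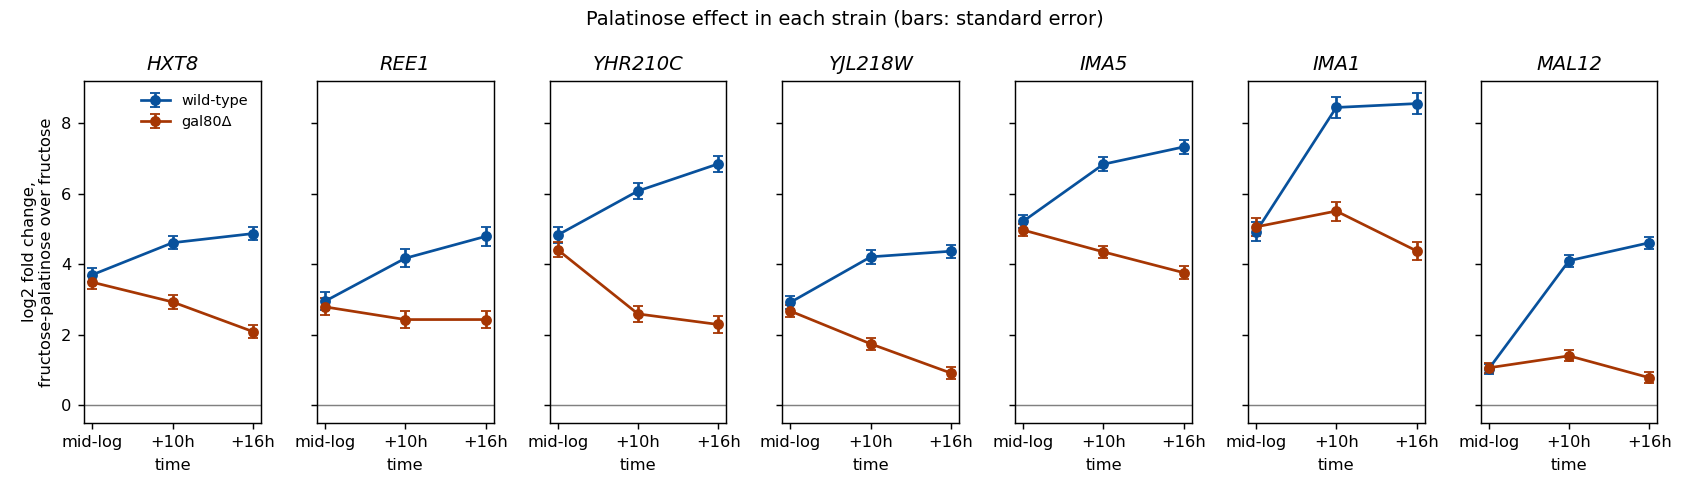
Log2 fold change of fructose-palatinose over fructose at the 3 times in the wild-type and *gal80Δ*, for the 4 genes and, beside them, *IMA5*, *IMA1* and *MAL12*. Bars are standard errors. The lines of the strains start together at mid-log and part at +10h, and by +16h *YHR210C* stands at 6.85 in the wild-type and 2.29 in *gal80Δ*.

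In fructose-palatinose, each change over time of these genes that passed the test was a rise in the wild-type and a fall in *gal80Δ*. Changes over time were not the rule of the choice, but their libraries are among those it used. They are thus not independent of it. Nothing is read from the shares of all genes given beside them, in either strain or medium. In the wild-type in fructose-palatinose, 3 of the 4 were higher at +10h than at mid-log, against 24.5% of all genes: *HXT8* by 1.45 ± 0.16 on the log2 scale, *YHR210C* by 1.05 ± 0.17 and *YJL218W* by 0.74 ± 0.16 (edgeR adjusted p = 1.3e-08, 5.8e-06 and 3.1e-04). *REE1* lay at 0.21 ± 0.23. From +10h to +16h, *YHR210C* rose by another 1.24 ± 0.17 and *YJL218W* by 0.77 ± 0.16 (edgeR adjusted p = 5.8e-05 and 0.00567), 2 of the 4 against 1.04% of all genes, a share that rests on 57 genes and on 2, 9 and 12 without replicate A, B and C. Over the same interval, *HXT8* stood at 0.12 ± 0.16 and *REE1* at 0.55 ± 0.23. The *YJL218W* value was 0.72 without replicate A and 0.77 without B and then missed the threshold (edgeR adjusted p = 0.238 and 0.208).

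In *gal80Δ* in fructose-palatinose all 4 fell from mid-log to +10h, against 23.2% of all genes, a share from which again nothing is read. *YHR210C* fell by 2.85 on the log2 scale, 7.22-fold (SE 0.19, edgeR adjusted p = 1.0e-13), *YJL218W* by 1.10 (SE 0.16, 1.3e-06), *REE1* by 0.91 (SE 0.23, 0.00112) and *HXT8* by 0.55 (SE 0.16, 0.00433). With scaling by library size alone *HXT8* fell by 0.26 and missed the threshold, since that scaling moves the median of all genes between these times. From +10h to +16h *HXT8* and *YJL218W* fell further, by 0.56 ± 0.16 and 0.52 ± 0.17 (edgeR adjusted p = 0.0255 and 0.0422), 2 of 4 against 3.45% of all genes. Both of these missed the threshold without any single replicate letter, with values from −0.63 to −0.47 for *HXT8* and from −0.66 to −0.29 for *YJL218W*.

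Changes over time in fructose went different ways in different genes. In the wild-type, 3 of the 4 changed from mid-log to +10h, against 55.2% of all genes in either direction: *HXT8* by 0.54, *REE1* 2-fold downwards and *YJL218W* by −0.54 on the log2 scale. From +10h to +16h 1 changed, against 11.1%, *YJL218W* by 0.61. In *gal80Δ* 2 changed from mid-log to +10h, against 52.7%, *YHR210C* by −1.04 and *REE1* by −0.56, and none from +10h to +16h, against 9.27%. Of these 6 calls, the 2-fold drop of *REE1* and the −1.04 of *YHR210C* held with each replicate letter left out. The others missed the threshold without B, at 0.41 for *HXT8*, −0.57 and 0.42 for *YJL218W*, and −0.47 for *REE1*. Without C they missed it at 0.43 for *HXT8*, −0.25 for *REE1* and −0.23 for *YJL218W* from mid-log to +10h, and the later value of *YJL218W* missed it at 0.56 without A.

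The neighbours of the genes on the chromosomes were looked at for a response to palatinose of their own. Up to 5 features on either side of each gene, fewer where the count table ends, gave 19 neighbours, 17 with enough counts to be tested. Of these 17, palatinose raised 1 in mid-log wild-type cells, against 0.128% of all genes, then 3 at +10h, against 5.38%, and 2 at +16h, against 2.56%. In *gal80Δ* it raised 1 each time, against 0.128%. The one raised throughout was *IMA5*, which stands between *REE1* and *HXT8*. It met the same rule as the 4 genes and is set apart from them only as an *IMA* gene. Its calls were thus known beforehand, and nothing is read from its share. No other neighbour was raised at mid-log or in *gal80Δ*. For *IMA5* the wild-type gave log2 fold changes of 5.22, 6.84 and 7.33 and *gal80Δ* gave 4.97, 4.35 and 3.76 (SE 0.18 to 0.20, edgeR adjusted p up to 1.8e-15). *IMA5* counts held 165, 139 and 218 CPM in the wild-type in fructose-palatinose at mid-log, 590, 519 and 597 at +10h and 698, 679 and 793 at +16h, and 66.4, 74.3 and 69.4 in *gal80Δ* at +16h.

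**Figure D4:**
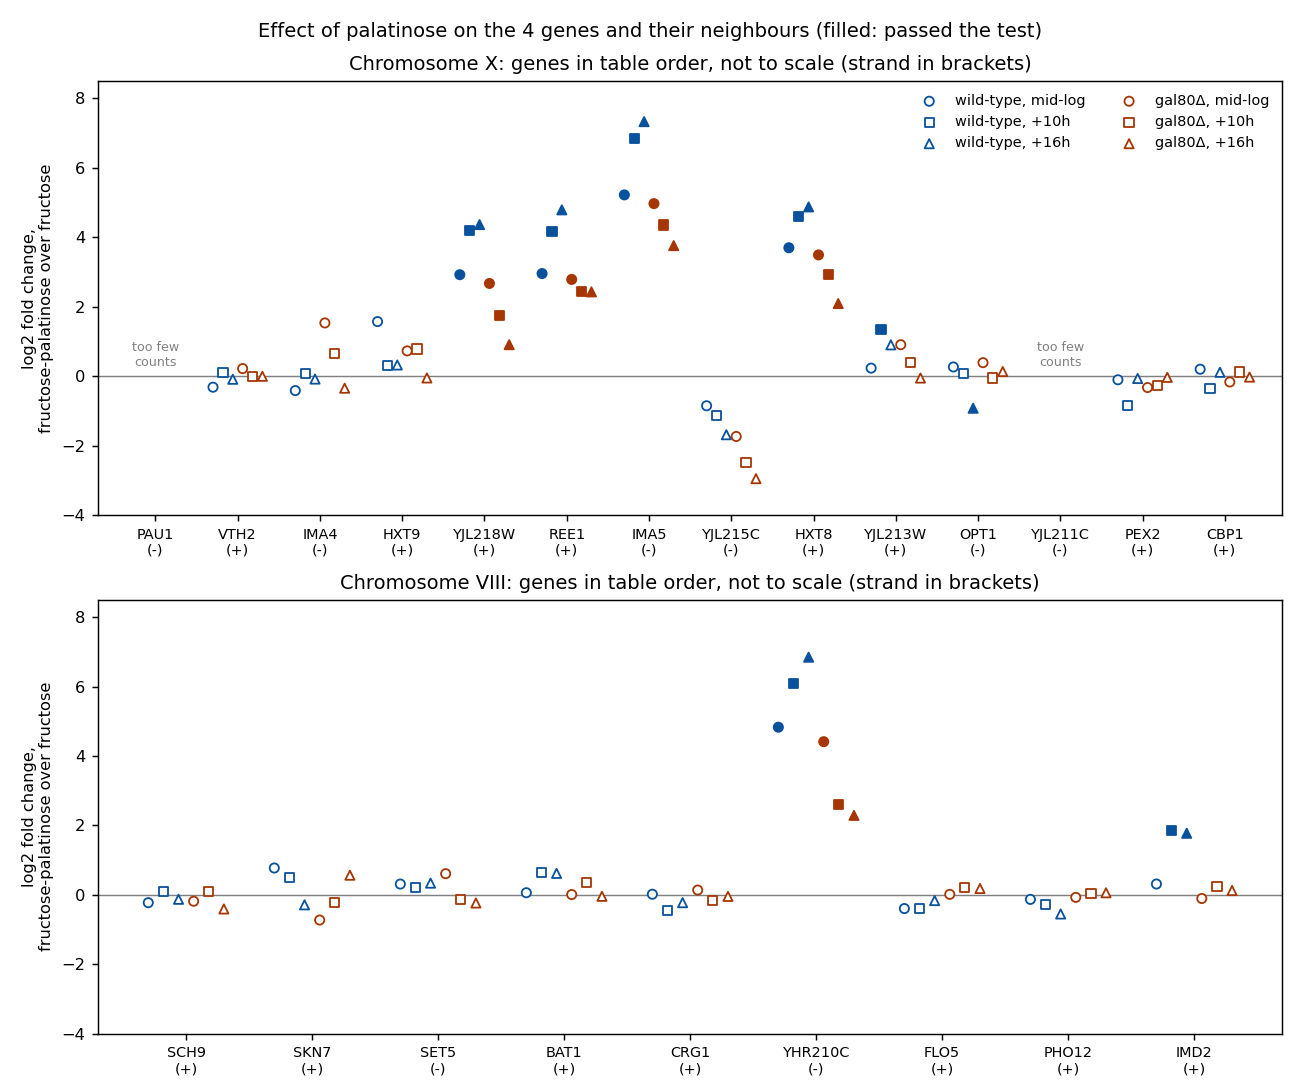
Log2 fold change of fructose-palatinose over fructose for the 4 genes and their neighbours, in table order and not to scale, with the strand in brackets. Filled markers passed the test, which for the 4 genes is the rule they were chosen by. *YJL218W*, *REE1*, *IMA5* and *HXT8* stand above 0 in a row on chromosome X, interrupted only by *YJL215C*, and *YHR210C* is flanked on chromosome VIII by *CRG1* and *FLO5*, which did not pass at any time.

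Before *YJL218W* stands *HXT9*, another hexose transporter gene. It had 0 to 15 counts per library and no call, at a depth that leaves a change of this gene hard to detect, and its coding sequence is the *HXT* copy nearest to *HXT8* on the chromosome, with 67.3% identity. After *HXT8* stands *YJL213W*, of unknown function, raised in the wild-type at +10h (log2 1.34 ± 0.31, edgeR adjusted p = 0.00418). It was not called in the wild-type at +16h, at 0.90 (edgeR adjusted p = 0.0657), nor in *gal80Δ*, where the mid-log value was 0.91. Beyond it *OPT1*, an oligopeptide transporter gene, was lowered in the wild-type at +16h (−0.92 ± 0.28, edgeR adjusted p = 0.0417). *YJL215C*, a reading frame on the reverse strand whose interval shares 1380 bp with that of *HXT8*, held 0 to 9 counts in the fructose-palatinose libraries and 0 to 27 in those with fructose. Its palatinose effects were all below 0, from −2.95 to −0.85 on the log2 scale. None was called, at a depth that leaves a change hard to detect. The 3′ end of *HXT8*, where reads fall, lies beyond the shared stretch.

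On chromosome VIII, *YHR210C* overlaps *CRG1*, a methyltransferase gene on the opposite strand, by 422 bp at their 3′ ends, where these libraries place their reads. Whether strand was used in counting is not given in the sources used here. *CRG1* held 62 to 335 counts in the fructose-palatinose libraries and 78 to 486 in fructose, while *YHR210C* reached 6456. The palatinose effect of *CRG1* lay between −0.45 and 0.14 on the log2 scale with no call. Its −0.45 in the wild-type at +10h had an edgeR adjusted p of 0.0282 and missed only the fold minimum. On the other side *FLO5*, a flocculin gene, was not called at any time, with values from −0.40 to 0.22. *IMD2*, an IMP dehydrogenase gene 3 features further on, was raised in the wild-type at +10h and +16h (1.85 ± 0.25 and 1.77 ± 0.25, edgeR adjusted p = 5.4e-06 and 8.2e-06) and was not called in *gal80Δ* (0.24 and 0.12). Its palatinose effect was smaller in the mutant by an interaction of −1.61 and −1.65 (edgeR adjusted p = 0.0128 and 0.00496).

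Over the 36 libraries the 4 genes varied together. These correlations largely follow the split between media that the genes were chosen on, and the genes named below all met the same rule, so the choice had largely fixed them. Pearson's r of log2 CPM between any pair of them lay between 0.944 and 0.956, as a description of libraries that fall into separate groups by medium. Over the libraries the gene with the highest r to each of the 4 was *IMA5*, at r = 0.988 with *HXT8*, 0.969 with *REE1*, and 0.957 with both *YHR210C* and *YJL218W*. For the last pair its lead was small, with 0.956 between *YHR210C* and *HXT8* and 0.955 between *YHR210C* and *YJL218W*. The 5 genes most like each were *IMA5*, *IMA1* and the other 3 in every case. Over the 12 group means the same 5 came out for *HXT8*, *REE1* and *YJL218W*, and 4 of them for *YHR210C*, with *MAL12* as the fifth. There *HXT8* came first for *YHR210C*, at 0.964 against 0.963 for *IMA5*.

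Within a library, however, the genes did not keep a fixed proportion to *IMA5*. The ratio of *YHR210C* to *IMA5* counts in fructose-palatinose was 0.558 ± 0.0716 (SD, n = 3) in the wild-type and 0.727 ± 0.0742 in *gal80Δ* at mid-log, but 0.416 ± 0.0335 and 0.174 ± 0.0223 at +10h, and 0.765 ± 0.0522 and 0.213 ± 0.0297 at +16h. The libraries of the strains did not overlap in this ratio at either later time, with the mutant below. *HXT8* went the other way, with 0.302 ± 0.0225 and 0.441 ± 0.0126 at +10h and 0.258 ± 0.0403 and 0.425 ± 0.0481 at +16h, the mutant above. So did *YJL218W*, with 0.127 ± 0.00329 and 0.282 ± 0.025 at +10h and 0.169 ± 0.0172 and 0.275 ± 0.0578 at +16h. For both genes the mutant was already above at mid-log, without overlap. The same held for *YHR210C* at mid-log, so that its ratio was below the wild-type only at the later times. The ratios there were 0.306 ± 0.015 and 0.372 ± 0.0107 for *HXT8*, and 0.211 ± 0.0322 and 0.348 ± 0.0061 for *YJL218W*. In the wild-type the ratio of *REE1* to *IMA5* was 7.56 ± 0.932 at mid-log, with 3.18 ± 0.209 and 3.63 ± 0.398 at the later times, and in *gal80Δ* it was 9.56 ± 1.27, 8.78 ± 0.706 and 9.43 ± 1.95. These ratios are descriptions and were not tested.

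The remaining genes of each family give the background for the members. Of 15 *MAL* and *IMA* genes, 12 were tested. In the wild-type palatinose raised 6 of them at +10h, against 5.38% of all genes, and 6 at +16h, against 2.56%. In the other comparisons it raised 3, always *IMA1*, *IMA5* and *MAL12*, against 0.128%. The medians of the list in the wild-type were 0.10, 0.38 and 0.78 on the log2 scale, near 0 for all genes. The genes added at the later times in the wild-type were *MAL11*, *MAL32* and *ZNF1*. *MAL12* and *MAL32* are nearly identical genes whose reads can be split between them. In fructose-palatinose, *gal80Δ* held 18.6% of the wild-type mean of *IMA1* at +10h and 5.84% at +16h, 17.6% and 9.68% of *IMA5*, and 42.4% and 27.6% of *MAL11*. *YHR210C*, at 7.39% and 2.71%, stood below all of these.

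Of 18 other hexose transporter and sensor genes, 13 were tested and none shared the pattern of *HXT8*. Palatinose raised none of them at mid-log or in *gal80Δ*. In the wild-type it raised *HXT4* and *HXT13* at +16h, against 2.56% of all genes. It lowered *HXT5* at +10h and *HXT2* and *HXT5* at +16h, when 339 and 199 of 5479 genes were lowered. The medians of the family lay between −0.21 and 0.12. The last 300 bases of *HXT8*, where reads fall, matched 4 other loci, none of them within a gene of the count table, with at most 69.4% identity. Of 5 enolase genes, listed for *REE1*, 3 were tested and palatinose raised *ENO2* once, in the wild-type at +10h, against 5.38% of all genes. *ENO1* and *ENO2* were lower in *gal80Δ* in both media at +10h and +16h. In fructose-palatinose 7.54% and 7.26% of all genes were lower at these times. In fructose 7.5% and 5.97% were called in either direction. Of the mutarotase-related genes listed for *YHR210C*, the 2 in the table, *GAL10* and *YMR099C*, were not called for palatinose, and *GAL10*, a Gal4 target, was higher in *gal80Δ* in all 6 comparisons of the strains.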

How the data were processed

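RNA was measured in 36 libraries, 3 biological replicates of each of 12 groups. The authors primed on the poly(A) tail, trimmed with cutadapt 1.18, aligned to build R64 with HISAT2 2.1.0, counted with featureCounts (Subread 2.0.0) on an annotation they adapted, and deposited the raw counts, not normalized. The deposited OD of each culture is another unit, an optical density as measured. The table's 1 other column of per-sample values, CPM, was set aside and CPM was computed from the counts.

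Counts were fitted in edgeR 4.0.16 (R 4.3.3) with TMM normalization, the default filter, 1 coefficient for each group and a quasi-likelihood test over 5479 genes, with Benjamini-Hochberg adjustment over these. A call needed a log2 fold change beyond 0.5 in either direction with an adjusted p-value below 0.05. Whether the times share a culture is not given in the sources used here, and libraries were treated as separate, so p-values measure the spread between these libraries. The procedure was tested on simulated data. Motifs were searched exactly and similar loci with blastn 2.17.0, with Python 3.11.15. Alternatives were DESeq2 1.42.0, library size alone, no filter, only the groups compared, a replicate block, each replicate letter left out, no fold minimum, TMM-scaled CPM, 500 bases upstream and likeness over group means. The letters in the labels paired the libraries, by correlations of deviations over 0.1 in all 3 pairs, in 3 of 20 comparisons, among them the strains in fructose-palatinose at +10h (0.172, 0.126 and 0.142). The 4 genes, the lists and the rule for names (the members, up to 5 neighbours on each side, the 5 most alike genes, and list genes called at all 3 times) were chosen with earlier results of these data known. *ZNF1*, *MAL11*, *MAL32*, *ENO1*, *ENO2*, *HXT2*, *HXT4*, *HXT5* and *HXT13* and *DAL1* were named after their values were seen. The lists come from general knowledge.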

Additional observations from a re-analysis of the deposited data

Results flagged for a closer look

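The interaction of strain and medium was past the threshold for all 4 genes at +10h and +16h, with a smaller palatinose effect in *gal80Δ*. It is made of the effects the genes were chosen on, so it is a description and not an independent test. On the log2 scale it was −3.49 and −4.56 for *YHR210C*, −2.47 and −3.46 for *YJL218W*, −1.67 and −2.78 for *HXT8*, and −1.73 and −2.36 for *REE1*, at +10h and +16h. The ranges with each replicate letter left out are given with the dependence on processing. Harvest densities of the strains in fructose-palatinose differed at the same times, from 1.90 to 2.1 against 2.60 to 2.80 at +16h, and their part was not tested.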

How the results depend on the processing

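The comparisons of the strains in fructose-palatinose at +10h and +16h, and the interaction at +16h, kept their direction and their calls for all 4 genes under every alternative run. With a replicate block the values were −3.88, −2.08, −1.15 and −1.48 at +10h and −5.31, −2.76, −2.10 and −2.77 at +16h for *YHR210C*, *HXT8*, *REE1* and *YJL218W*, and for the interaction −3.49 and −4.55, −1.67 and −2.79, −1.72 and −2.37, and −2.47 and −3.46. The block ended only the calls of *YJL218W* from +10h to +16h in wild-type fructose (0.61) and in *gal80Δ* fructose-palatinose (−0.52), in comparisons the letters did not pair. The interaction at +10h ranged from −2.05 to −1.46 for *HXT8* and from −2.22 to −1.29 for *REE1* with each letter left out. At mid-log, where nothing passed, it ranged from −0.51 to 0.17 for *HXT8*, −0.37 to 0.01 for *REE1* and −0.70 to 0.07 for *YJL218W*. The strains in fructose-palatinose at mid-log gave −0.25 to 0.11 for *REE1* (0.06 with library size alone, 0.00 with only the groups compared) and −0.10 to 0.10 for *YHR210C*. In fructose the ranges were −0.24 to 0.38 at +16h and −0.21 to 0.49 at mid-log for *HXT8*, and 0.86 to 1.15 at +10h, 0.46 to 0.82 at +16h and 0.45 to 1.05 at mid-log for *YJL218W*, with 1.00 and 0.69 at +10h and +16h, both uncalled, with only the groups compared. DESeq2 called *YHR210C* at +16h, at −0.78. Uncalled changes over time that turned were, in fructose, those of *HXT8* in *gal80Δ* (−0.12 to 0.65 from +10h to +16h, −0.22 to 0.20 from mid-log to +10h, −0.04 with DESeq2, and −0.01 with no filter and with only the groups compared) and in the wild-type (−0.36 to 0.01 from +10h to +16h), of *REE1* in the wild-type (−0.55 to 0.26 from +10h to +16h), of *YHR210C* in *gal80Δ* (−0.24 to 0.43 from +10h to +16h) and the wild-type (−0.57 to 0.03 from mid-log to +10h, 0.15 with library size alone), and of *YJL218W* in *gal80Δ* from mid-log to +10h (0.09 with library size alone), and in fructose-palatinose that of *YHR210C* in *gal80Δ* from +10h to +16h (−0.34 to 0.04). For other values that turned or lost a call the cause was not tested.

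With library size alone the median of all genes was 0.28 to 0.38 (log2) between mid-log and +10h, against 0.02 to 0.06 with TMM. Between the strains in fructose-palatinose at +10h and +16h it was 0.14, against 0.02. It was 0.17 in the interaction at +10h and −0.13 for palatinose in the wild-type at +10h, against −0.00 and −0.01. The share of calls that were higher went from 52.8% to 54.9% up to 72.3% to 74.7% in the first of these, from 49.4%, 47.1% and 43.5% to 74%, 67.9% and 67.2% between the strains in fructose-palatinose, from 31.8% to 53.3% in the interaction and from 46.5% to 24.5% for palatinose. Numbers of genes called, the background of the percentages, moved more than those of the 4 genes. DESeq2 called 110 and 132 genes in the interaction at +10h and +16h against 44 and 84, and with only the groups compared 39 genes differed between the strains in fructose at +10h against 411, 59 against 392 at mid-log, and 136 responded to palatinose in the wild-type at +10h against 634. TMM-scaled CPM moved 12 of 48 group means by more than their SD. Low counts in fructose limit *HXT8*, *YHR210C* and *YJL218W* most.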
